A study of Mus musculus with 8 samples.

Results

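The 9 genes described here encode enzymes of the citric acid cycle, the mitochondrial cycle that oxidises acetyl groups to carbon dioxide. They were chosen by symbol: Cs, Idh3a, Idh3b, Idh3g, Ogdh, Sucla2, Suclg1, Fh1 and Mdh2. All 9 were on the array and were measured, among 26856 genes and transcripts tested. Neural stem cells, the dividing precursors of neurons and glia, came from OF-1 mouse embryos at embryonic day 13.5. From isolation onward they were grown in serum-free medium at 21% oxygen (normoxia) or 5% oxygen (hypoxia) for at least 10 days. No other treatment and no genetic change is named in the labels. RNA from 4 cultures of each kind, from 4 experiments on different donors, was hybridised to 1-colour Agilent arrays, and same-numbered cultures were compared as pairs. RNA came from whole cultures, with no sort named in the labels, so a change in the make-up of the culture and a change of RNA per cell cannot be told apart.

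In the cycle, citrate synthase (Cs) joins an acetyl group to oxaloacetate, and a chain of dehydrogenases then releases carbon dioxide and passes electrons to the respiratory chain. Entry of pyruvate is set upstream by the pyruvate dehydrogenase complex, which kinases of the Pdk family switch off by phosphorylation. Pdk1 is a known target of hypoxia-inducible factor (HIF), and neural progenitors are known for a large share of glycolysis in their energy supply.

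None of the 9 genes passed the test for a change at 5% oxygen. Changes on the log2 scale ran from -0.10 (Suclg1) to 0.25 (Cs), with 5 genes above 0 and 4 below. The hypoxia and normoxia groups overlapped for all 9. Such overlap was not counted over all genes, so whether it sets the 9 apart is not known. Over the same 4 pairs, Pdk1 rose by 6.45-fold and 6 of 6 known hypoxia response genes rose. These lists were chosen with earlier results of these data known, so the 6 of 6 is not an independent check. Changes were estimated with a paired fit in limma, with p-values adjusted over all genes tested (Benjamini-Hochberg) and a threshold of 0.05. In that fit 5.54% of the genes and transcripts passed, as did 0 of the 9. An unadjusted p under 0.05 was found for 5207 of all 26856 and for 0 of the 9. The 5207 of 26856 is also the background for such counts in other lists below. In a fit without the pairs 0.0894% passed, again with 0 of the 9 among them. At either share past the threshold a list of 9 genes would hold less than 1 call on average. That count of 0 thus does not set these genes apart from the rest.

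The arrays differed in brightness. Spots well above background made up 64.4% to 73.9% of the non-control spots of an array. The signal at the 75th percentile of an array was between 1909 and 7352 intensity units. Replicate 1 was the dimmest of the 4 pairs, with a percentile of 2990 at 21% oxygen and 1909 at 5%. Levels are given as log2 signal minus that percentile. Each probe has its own brightness, so levels are compared between arrays and not between genes. The probe used for each of the 9 genes was well above background on all 8 arrays, with intensities of 32630 to 442700, and none was saturated.

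All 13 neural stem cell and radial glia markers, Nes, Sox2 and Fabp7 among them, were well above background on all 8 arrays, and none of the 13 passed the test. Markers of other cells were also present, and calls among them come from the paired fit, since without the block none passed. In the paired fit 1140 of all 26856 genes and transcripts tested rose and 347 fell. Of the neuronal markers 4 of 12 rose, with a summed level (sum of the linear values relative to the percentile) of 18.4 to 20.4 at 21% oxygen and 20.5 to 25.3 at 5%. The brightest genes of a list carry its sum, and these need not be the genes that passed. Map2, the brightest neuronal marker, had a mean of 3.72 at 21% oxygen and a change of -0.03, and did not pass. Of the tested markers, 2 of 8 astrocyte genes rose (summed level 77.7 to 149 against 101 to 193), and in the oligodendrocyte list of 9 genes 2 rose and 1 fell (42.9 to 77.1 against 59.4 to 92.8). Among meningeal fibroblast genes 4 of 8 rose and 2 fell (2.22 to 7.06 against 3.02 to 11.4), and among endothelial and mural genes 3 of 9 rose and 3 fell (3.55 to 14.4 against 4.33 to 7.83). None of 7 microglial (2.49 to 6.20 against 2.81 to 5.94) and 3 tested erythroid genes (0.107 to 0.129 against 0.127 to 0.160) passed. In the erythroid list 3 of the 8 genes on the array were not well above background on any array. Their part in the values of the cycle genes was not tested.

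Stretches around the starts of 5 genes are shown because they contrast the kinase gene that rose with cycle genes that did not pass the test. Each runs from 200 bases before to 10 bases after the annotated start, on the plus strand of build GRCm38.p6, as RefSeq gives it. Capitals in the first 4 mark the HIF core motif, ACGTG or GCGTG on either strand, and in the last they mark the 10-base palindromic motif of NRF1. NRF1 (nuclear respiratory factor 1) is a factor known for driving nuclear genes of mitochondria. The stretches are Pdk1 at chr2:71873024-71873233, Cs at chr10:128337527-128337736, Mdh2 at chr5:135778449-135778658, Suclg1 at chr6:73248305-73248514 and Sucla2 at chr14:73552586-73552795.
Pdk1: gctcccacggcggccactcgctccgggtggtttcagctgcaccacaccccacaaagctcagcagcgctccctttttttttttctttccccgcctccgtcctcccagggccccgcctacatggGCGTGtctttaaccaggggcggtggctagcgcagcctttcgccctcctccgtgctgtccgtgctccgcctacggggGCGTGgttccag
Cs: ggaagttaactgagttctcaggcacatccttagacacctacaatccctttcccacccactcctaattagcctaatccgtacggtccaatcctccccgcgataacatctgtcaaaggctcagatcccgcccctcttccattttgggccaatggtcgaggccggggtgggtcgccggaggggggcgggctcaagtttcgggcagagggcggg
Mdh2: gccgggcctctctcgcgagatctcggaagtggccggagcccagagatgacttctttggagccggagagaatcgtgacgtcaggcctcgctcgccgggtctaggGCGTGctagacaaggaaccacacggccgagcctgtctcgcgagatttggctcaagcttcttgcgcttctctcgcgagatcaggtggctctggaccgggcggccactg
Suclg1: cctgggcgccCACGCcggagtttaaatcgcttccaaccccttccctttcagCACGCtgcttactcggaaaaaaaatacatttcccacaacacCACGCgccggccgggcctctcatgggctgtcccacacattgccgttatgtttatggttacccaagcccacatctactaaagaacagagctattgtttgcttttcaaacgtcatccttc
Sucla2: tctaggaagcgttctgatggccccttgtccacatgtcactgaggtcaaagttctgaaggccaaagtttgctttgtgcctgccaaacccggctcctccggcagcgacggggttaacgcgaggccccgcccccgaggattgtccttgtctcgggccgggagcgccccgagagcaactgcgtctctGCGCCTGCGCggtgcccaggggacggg

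In this window Pdk1 held the HIF core 78 and 2 bases before the start shown. RefSeq gives another start for Pdk1, and the window of 300 bases around that start (chr2:71874654-71874953) held no HIF core. In the stretches shown, Mdh2 held the core 97 bases before its start. Suclg1 held it 190, 149 and 108 bases before, read on the reverse strand. Cs held none. RefSeq windows of 300 bases were given for 8 of the 9 genes, all but Idh3a, and numbered 13, since Ogdh has 6 starts. The HIF core was in at least 1 window of 5 of the 8 genes (Idh3g, Ogdh, Suclg1, Fh1 and Mdh2) and in 10 of the 13 windows, 6 of which are those of Ogdh and overlap in part, beside 43.8% of all 32851 mouse windows. These shares are per window, and a gene with more starts has more windows. The NRF1 motif was in 1 of the 13 windows (Sucla2, 17 bases before the start) beside 4.60% of all windows. The ETS motif CCGGAAG, read by GABP, was in 2 of 13 (Idh3b and Idh3g) beside 8.86%, and the motif AAGGTCA of oestrogen-related receptors in 1 window of Ogdh beside 4.72%. These matches are letters in a window and not measured binding.

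Cs, which encodes the enzyme of the first step, had the highest change of the 9. Its level in replicates 1 to 4 was 6.66, 5.89, 6.03 and 5.67 at 21% oxygen and 7.00, 6.22, 6.03 and 5.99 at 5%. It was higher at 5% oxygen by 0.31 to 0.34 in 3 pairs and by 0.0015 in the third, while replicate 1 stood above the other cultures under both conditions. The mean went from 6.06 ± 0.43 to 6.31 ± 0.47 (SD, n = 4 per group), a difference of 0.25 (SE 0.14, 95% interval -0.07 to 0.56, limma adjusted p = 0.377). A change of 1.48-fold upward lies at the end of that interval.

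The 3 subunits of NAD-dependent isocitrate dehydrogenase, which makes 2-oxoglutarate, lay close to 0. Idh3a encodes the catalytic subunit and had levels of 4.45, 4.61, 4.68 and 4.54 at 21% oxygen and 4.46, 4.51, 4.75 and 4.62 at 5%. The groups covered almost the same range, with a change of 0.02 (SE 0.13, 95% interval -0.28 to 0.31, limma adjusted p = 0.966). Idh3b, a regulatory subunit, had levels of 3.90, 3.86, 4.04 and 3.78 at 21% oxygen and 4.10, 3.74, 3.96 and 3.68 at 5%. Replicate 1 was higher at 5% oxygen and the other three were lower, which gave a change of -0.03 (95% interval -0.34 to 0.29, adjusted p = 0.947). Idh3g, the other regulatory subunit, had levels of 5.49, 5.18, 5.41 and 5.00 at 21% oxygen and 5.59, 5.22, 5.22 and 5.05 at 5%. Replicates 1, 2 and 4 were slightly higher at 5% oxygen and replicate 3 was lower, with a change of 0.0029 (95% interval -0.30 to 0.31, adjusted p = 0.994).

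Ogdh encodes the first component of the 2-oxoglutarate dehydrogenase complex. Its level was 4.82, 4.36, 4.58 and 4.36 at 21% oxygen and 4.63, 4.32, 4.49 and 4.45 at 5%. Replicates 1 to 3 were lower and replicate 4 was higher at 5% oxygen, with a change of -0.06 (SE 0.13, 95% interval -0.36 to 0.25, limma adjusted p = 0.868). Ogdh was the only one of the 9 genes with more than 1 probe. Its other probes were at 0.04 (95% interval -0.36 to 0.45) and -0.04 (95% interval -0.43 to 0.35), so the 3 probes differed in sign and all had intervals that include 0.

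Succinyl-CoA synthetase, which makes ATP or GTP in the cycle, is built from a shared alpha subunit (Suclg1) and a beta subunit (Sucla2 in the ADP-using form). Sucla2 had levels of 4.25, 4.34, 4.40 and 4.07 at 21% oxygen and 4.29, 4.25, 4.22 and 4.16 at 5%. Its hypoxia values lay within the normoxia range, with a change of -0.04 (95% interval -0.34 to 0.27, limma adjusted p = 0.922). Suclg1 had levels of 4.88, 4.62, 4.65 and 4.57 at 21% oxygen and 4.82, 4.29, 4.64 and 4.58 at 5%. Most of its difference came from replicate 2, and the change was -0.10 (SE 0.14, 95% interval -0.41 to 0.21, adjusted p = 0.759), the lowest of the 9.

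Fh1 encodes fumarate hydratase, which turns fumarate into malate. Its level was 4.87, 4.26, 4.50 and 4.23 at 21% oxygen and 4.78, 4.57, 4.21 and 4.40 at 5%. The pairs moved in opposite directions, by -0.09, 0.30, -0.29 and 0.17, and the change was 0.02 (SE 0.15, 95% interval -0.33 to 0.37, limma adjusted p = 0.959).

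Mdh2 encodes mitochondrial malate dehydrogenase, which regenerates oxaloacetate for citrate synthase. Its level was 6.88, 5.87, 6.03 and 5.69 at 21% oxygen and 7.15, 6.30, 5.77 and 6.02 at 5%. Like Cs it was highest in replicate 1 under both conditions, and 3 pairs were higher at 5% oxygen while replicate 3 was lower. The mean went from 6.12 ± 0.53 to 6.31 ± 0.60 (SD, n = 4 per group), a difference of 0.19 (SE 0.16, 95% interval -0.17 to 0.56, limma adjusted p = 0.566).

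**Figure D1:**
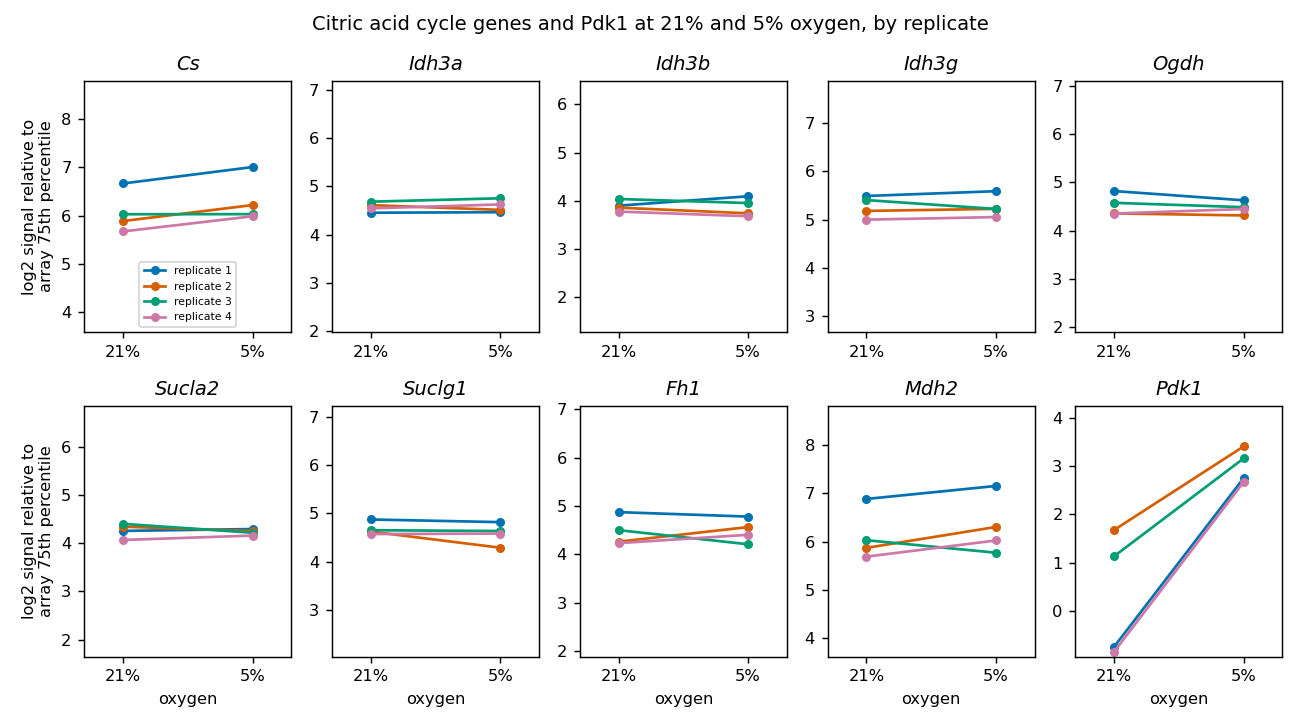
Each panel plots the log2 signal relative to the array's 75th percentile (y axis, the same span of log2 units in every panel) of 1 gene at 21% and 5% oxygen (x axis), with 1 line for each of the 4 replicates. Lines of the 9 cycle genes run close to level, Cs and Mdh2 have replicate 1 set above the others, and Pdk1 rises in all 4 replicates.

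In the paired fit the 95% intervals of the 9 genes reached from 0.751-fold to 1.48-fold, and on the log2 scale all included 0. Without the block they were wider, with log2 changes of -0.40 to 0.89 for Cs and -0.57 to 0.96 for Mdh2. The median change of the 9 was 0.0029, beside 0.03 over all genes tested. In the 4 pairs the median of the 9 was 0.04, -0.04, -0.09 and 0.09, beside 0.03, 0.17, -0.13 and 0.05 over all genes. The number of the 9 that were higher at 5% oxygen was 6, 4, 2 and 8 in pairs 1 to 4, so no direction held over the pairs. For 7 of the 9 the absolute change was below 0.179, the median absolute change over all genes. The median SE was 0.135 for the 9 genes and 0.158 over all genes. By mean signal the 9 were among the brighter genes, with 89.44% to 99.72% of all genes dimmer (median 93.45%). These comparisons thus set bright genes beside mostly dimmer ones, and do not show that the 9 are unusually stable.

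**Figure D2:**
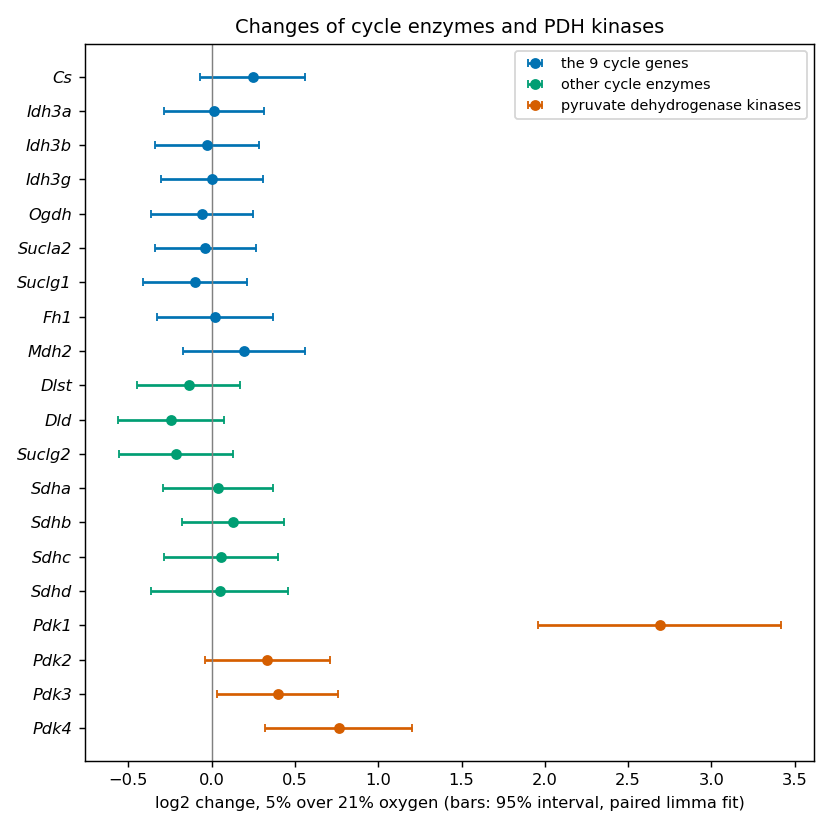
Points show the log2 change of each gene at 5% over 21% oxygen in the paired limma fit (x axis) with its 95% interval as a bar, for the 9 cycle genes, 7 other cycle enzymes and 4 pyruvate dehydrogenase kinases (y axis). Bars of every cycle gene drawn cross 0, and Pdk1 lies at 2.69 with a bar from 1.96 to 3.42.

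**Figure D3:**
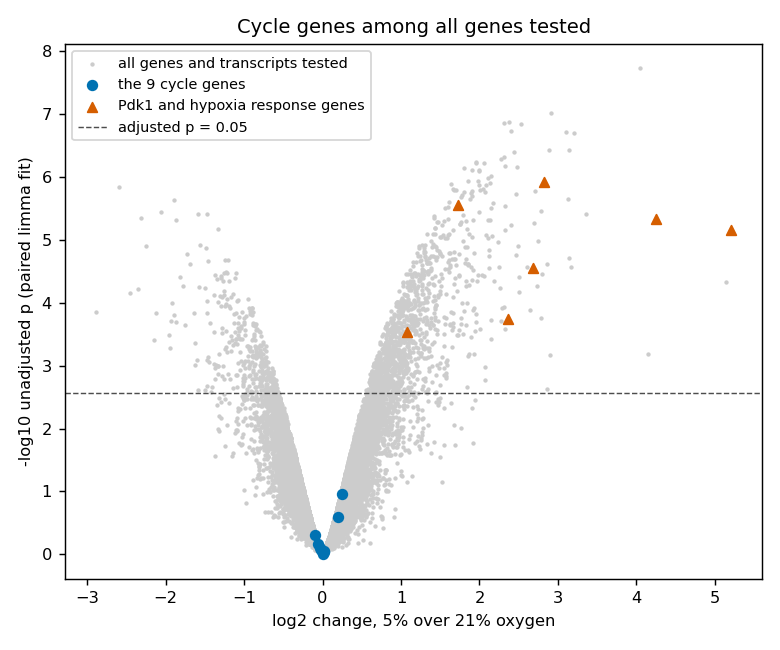
The log2 change at 5% over 21% oxygen (x axis) is plotted against −log10 of the unadjusted p of the paired limma fit (y axis) for all 26856 genes and transcripts in grey, the 9 cycle genes in blue, and Pdk1 with 6 hypoxia response genes as triangles. The cycle genes lie near 0 below the dashed line of the threshold, and the triangles lie above it on the right.

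The range of the 4 pair means, highest less lowest, exceeded the absolute change for 9 of 9 genes. A range over 4 values tends to exceed a mean difference, so this count does not set the 9 apart. The range was 1.01 for Cs, 1.16 for Mdh2 and between 0.20 and 0.51 for the other seven. Its median was 0.39 beside 0.68 over all genes, most of them dimmer than the 9. The median absolute change over all genes was 0.179. The highest pair mean was that of replicate 1 for 7 of the 9, which was not counted over all genes. For Idh3b it was highest by 3.998 against 3.997 in replicate 3. Scanner intensities give these values another side. The 75th percentile differed 3.85-fold between the brightest and dimmest array, whereas the intensity of Cs differed 1.81-fold and that of Mdh2 1.57-fold. For Cs the intensity was 303200, 431700, 346300 and 374400 at 21% oxygen and 245000, 356000, 442700 and 344400 at 5%. It was thus lower at 5% oxygen in replicates 1, 2 and 4, the replicates in which the array percentile was also lower. The same held for the intensity of every gene of the 9, so it does not set Cs apart. Apart from Cs and Mdh2, intensities differed by 2.67-fold (Fh1) to 4.34-fold (Idh3a) between arrays.

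The sign of the Cs and Mdh2 differences turned under 1 of the 15 settings. Median scaling kept both above 0, at 0.19 for Cs and 0.14 for Mdh2. Quantile normalization, which gives every array the same distribution, put Cs at -0.01 and Mdh2 at -0.07, and the cause was not tested. The range of pair means went from 1.01 to 0.25 for Cs and from 1.16 to 0.084 for Mdh2, while that of Idh3a went from 0.26 to 0.56. Under that scaling all 9 genes were below 0, with Suclg1 lowest at -0.19 and Idh3g at -0.18, and replicate 1 had the highest pair mean for 1 of the 9. The median of the 9 was then -0.07, beside -0.02 over all genes. None of the 9 passed under any of the 15 settings run, and their smallest limma adjusted p was 0.258 (Mdh2 without replicate 3). Ogdh and Suclg1 kept a negative sign in every setting, and each of the other seven had another sign in at least 1.

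**Figure D4:**
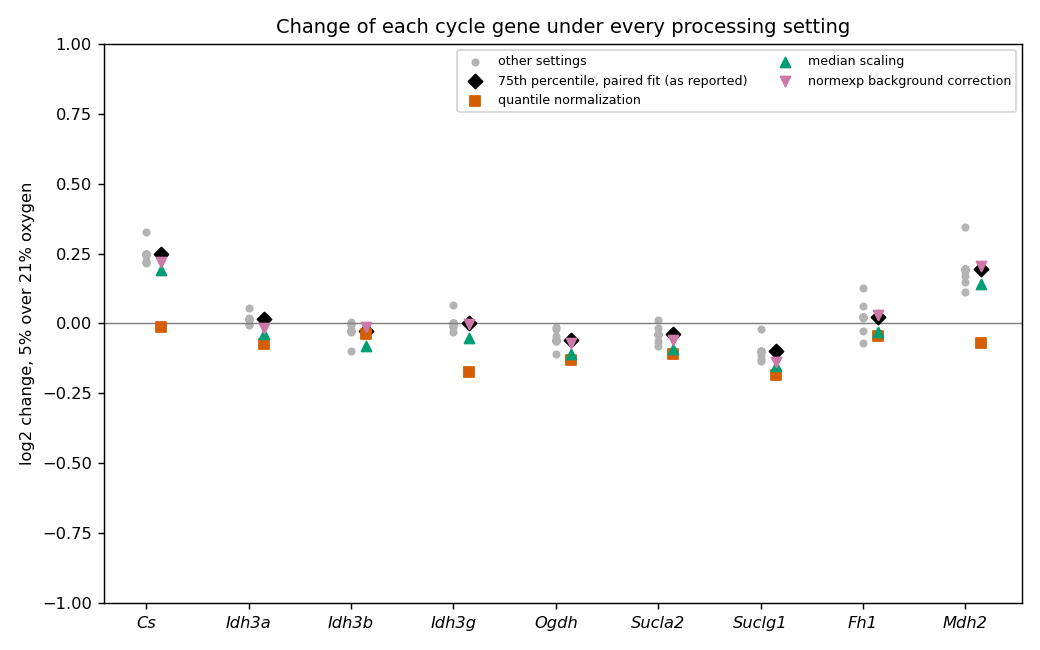
For each of the 9 cycle genes (x axis) the log2 change at 5% over 21% oxygen (y axis) is plotted under every processing setting, with the reported value as a black diamond. Quantile normalization moves Cs from 0.25 to -0.01 and Mdh2 from 0.19 to -0.07, and no setting moves a gene beyond 0.35 in size.

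Ratios between subunits of 1 enzyme are not moved by scaling to a percentile or a median, which cancels within an array. The log2 change of Idh3a exceeded that of Idh3b by 0.04 (SD 0.17 over 4 pairs) and that of Idh3g by 0.01 (SD 0.17), and that of Idh3b was below that of Idh3g, at -0.03 (SD 0.15). For Sucla2 against Suclg1 it was 0.06 (SD 0.17). In 4 exact two-sided sign-flip permutation tests p was 0.75, 0.875, 0.75 and 0.5, with an adjusted p of 0.875 for each. With 4 pairs the smallest possible p is 0.125, so these tests could not have reached the threshold. Quantile normalization does not cancel within an array. Under it, in an alternative chosen after seeing the data, the values were -0.04, 0.10, 0.14 and 0.08 in the same order, and that of Idh3b against Idh3g was above 0 in 4 of 4 pairs (exact p = 0.125, the smallest possible).

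Other cycle enzymes had 0 of 7 past the threshold, 0 at an unadjusted p under 0.05 and a median change of 0.04 that went to -0.10 under quantile normalization. The 4 subunits of succinate dehydrogenase, which is also complex II of the respiratory chain, were at 0.04 (Sdha), 0.13 (Sdhb), 0.06 (Sdhc) and 0.05 (Sdhd). Their limma adjusted p-values were from 0.663 to 0.925, and all 4 were below 0 under quantile normalization. Another probe of Sdhb was at -0.0022 and another of Sdhc at 0.09. Genes of the 2-oxoglutarate dehydrogenase complex other than Ogdh were below 0: Dlst, the transferase component, at -0.14 (adjusted p = 0.637) and Dld, the dihydrolipoamide dehydrogenase shared with the pyruvate complex, at -0.24 (adjusted p = 0.391). Dld was lower at 5% oxygen in 4 of 4 pairs, and its second probe gave -0.22 with pair 2 higher at 5% oxygen, by 0.11. Suclg2, the beta subunit of the GDP-using synthetase, was at -0.21 (adjusted p = 0.492).

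Of the 4 pyruvate dehydrogenase kinases, which act at the entry to the cycle, 1 passed the test and rose. Pdk1 had levels of -0.74, 1.68, 1.13 and -0.84 at 21% oxygen and 2.75, 3.41, 3.16 and 2.67 at 5%, with no overlap between groups. Its normoxia cultures spread more widely than its hypoxia cultures. The mean went from 0.31 ± 1.29 to 3.00 ± 0.35 (SD, n = 4 per group), a change of 2.69 (SE 0.32, 95% interval 1.96 to 3.42, limma adjusted p = 0.00402). Without the pairs as a block the adjusted p was 0.104. Pdk2, Pdk3 and Pdk4 were at 0.34, 0.40 and 0.76 (adjusted p = 0.31, 0.215 and 0.0607), each higher in 4 of 4 pairs. Pdk4 passed with normexp background correction (0.73, adjusted p = 0.0157), with probes above background on all 8 arrays (0.0417), with trend and robust moderation (0.024) and without replicate 4 (0.92, 0.0373). Of the 10 genes for pyruvate entry, 0 passed and 4 had an unadjusted p under 0.05, with a median change of -0.20. Pyruvate carboxylase (Pcx), which makes oxaloacetate from pyruvate, was at -0.59 (adjusted p = 0.083; 0.0437 with normexp and 0.0143 with trend and robust moderation), and Pdpr, a regulatory subunit of the phosphatase that reverses the kinases, was at -0.46 (adjusted p = 0.198).

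Cytosolic and NADP-linked counterparts of cycle enzymes numbered 10, of which 1 fell and 0 rose, with 3 at an unadjusted p under 0.05 and a median change of 0.0051. The gene that fell was Me3, a mitochondrial NADP-linked malic enzyme. Its level was 0.79, 0.83, 1.12 and 0.79 at 21% oxygen and -0.14, -0.11, 0.27 and 0.13 at 5%, with no overlap. The change was -0.84 (SE 0.13, limma adjusted p = 0.0115). The call was lost without the block (adjusted p = 0.12), with no filter on dim probes (0.0553), without replicate 1 (0.067) and without replicate 3 (0.063). With trend and robust moderation 2 more genes of this list, named after their values were seen, passed as higher: Me1, the cytosolic malic enzyme, at 0.46 (0.0275) and Acly, which splits citrate in the cytosol, at 0.45 (0.0446).

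Of 12 genes that feed amino acid carbon into the cycle or encode related dehydrogenases, 1 rose and 0 fell, with 2 at an unadjusted p under 0.05 and a median change of -0.0088. The gene that rose was Gls2, a glutaminase, with levels of -0.36, 0.23, 0.39 and -0.69 at 21% oxygen and 0.99, 1.11, 0.98 and -0.12 at 5%. It was higher in 4 of 4 pairs although the groups overlapped through replicate 4. The change was 0.85 (1.80-fold, SE 0.17, limma adjusted p = 0.0279). This call was lost without the block (adjusted p = 0.507), with no filter on dim probes (0.105) and without replicate 1 (0.13), 2 (0.0898) or 3 (0.0949). The GABA transaminase gene Abat, at -0.55 (adjusted p = 0.083), passed as lower with normexp (0.0394) and with trend and robust moderation (0.0187). It is named after its values were seen.

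Among 6 mitochondrial carriers of cycle acids 0 passed and 2 had an unadjusted p under 0.05, with a median change of 0.11. The citrate carrier Slc25a1 was at 0.64 (limma adjusted p = 0.0846) and the dicarboxylate carrier Slc25a10 at -0.73 (adjusted p = 0.112). Slc25a1 passed with normexp background correction (0.0388), with the replicate as a random block (0.0436) and with trend and robust moderation (0.0146), and Slc25a10 passed with normexp (0.0405) and with trend and robust moderation (0.046). Of 6 tested genes for succinate dehydrogenase assembly and lipoylation, 0 passed (limma, 0 at an unadjusted p under 0.05), with a median of -0.05. The assembly factors Sdhaf4 and Sdhaf1 were at 0.26 (adjusted p = 0.331) and -0.18 (adjusted p = 0.515).

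Genes that report on mitochondria as a whole were looked at too. Over all genes tested 5.54% passed, so a count of 0 in lists this short does not set them apart. Of 12 content markers of the outer membrane, import machinery, chaperones and cytochrome c, 0 passed (limma, 0 at an unadjusted p under 0.05), with a median change of 0.04. The channel Vdac1 was at 0.26 (adjusted p = 0.408) and the import receptor Tomm22 at -0.22 (adjusted p = 0.456). Of 11 regulators of mitochondrial biogenesis, 0 passed and 2 had an unadjusted p under 0.05. In that list 9 of 11 were below 0, with a median of -0.19, beside 12294 of 26856 and a median of 0.03 over all genes tested. The mitochondrial RNA polymerase Polrmt was at -0.48 (adjusted p = 0.112; 0.0357 with trend and robust moderation) and the coactivator Pprc1 at -0.41 (adjusted p = 0.156). Among 8 housekeeping genes 0 passed and 2 had an unadjusted p under 0.05, with a median of 0.25 that went to 0.06 under quantile normalization. Gapdh was at 0.51 (adjusted p = 0.159; 0.0484 with trend and robust moderation) and Ppia at 0.34 (adjusted p = 0.205).

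The hypoxia response genes, chosen with earlier results of these data known, had large changes on the same arrays. Car9, a carbonic anhydrase, rose by 19.1-fold (limma adjusted p = 0.00182), and Ndufa4l2, a mitochondrial protein, rose by 36.8-fold (0.00215). The glucose transporter Slc2a1 rose by 2.10-fold (0.0132), the mitophagy receptor Bnip3 by 5.14-fold (0.0106), the prolyl hydroxylase Egln3 by 3.32-fold (0.00145) and Ankrd37 by 7.08-fold (0.00117). Without the block 1 of the 6, Egln3, passed (adjusted p = 0.037). Slc2a1 missed the threshold with no filter on dim probes (0.0646) and without replicate 1 (0.0539) or 3 (0.0508), and Bnip3 with no filter (0.0592) and with trend and robust moderation (0.0728).

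The median profile of the 9 genes over the arrays varied mainly by replicate. With each gene centred on its mean, their median was 0.24, -0.09, 0.08 and -0.18 in replicates 1 to 4 at 21% oxygen and 0.21, -0.05, -0.03 and -0.09 at 5%. The 5 RefSeq genes with the most similar pattern by Pearson's r over the 8 arrays were 1110065P20Rik (0.988), Hmg20b (0.984), Lamtor1 (0.979), Galnt7 (0.978) and Tex44 (0.976). Not every gene of the 9 followed this median: the pair mean of Idh3a was lowest in replicate 1, that of Sucla2 was highest in replicate 3, and under quantile normalization replicate 1 was highest for only 1 of the 9. The 8 points of each r share arrays and pairs, and 206 of 16017 genes compared had an r above 0.9. None of the 5 passed the test, with limma adjusted p-values from 0.89 to 0.975.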

How the data were processed

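Per the submitters' processing notes, Agilent Feature Extraction 10.7.3.1 was used. The deposited intensity is background-subtracted and, per the file headers, not scaled between arrays. A table of log2 values that the authors deposited served as an alternative. For 99.72% to 99.76% of probes it matched, within 0.01, log2 signal centred on the array's 75th percentile and then on the probe's median, and its column medians ran from -0.117 to 0.249.

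Values here were log2 signal relative to each array's 75th percentile, without control spots and without spots marked non-uniform or population outlier. Probes well above background on 3 or more of the 4 arrays of either group were kept (37650 of 55681). Accessions matched RefSeq genes of GRCm38.p6 for 27235 probes. Probe coordinates are left out because the array's design follows another build. The brightest probe stood for a gene. Groups and replicate numbers came from sample titles. Since 1 slide carried all 8 arrays, slide and scan could not be tested as batches.

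Limma 3.58.1 in R 4.3.3 (lmFit and eBayes) was fitted over all genes with the replicate number as a block. Both oxygen conditions were cultured in parallel and each experiment used different donors, per the labels. Deviations from group means correlated between same-numbered arrays at 0.758, 0.515, 0.379 and 0.66, against at most 0.306 with another number. The fit was tested on simulated data with known changes. The genes and lists were chosen with earlier results of these data known. Genes named beyond the 9 were other cycle enzymes, all pyruvate dehydrogenase kinases and hypoxia response genes, the genes past the threshold or else the 2 with the smallest p in each other list, and the 5 genes most alike in pattern. Of these, 1 gene that this rule names is not reported here. The number of arrays limits the precision. The p-values of the paired fit set a change against the spread of the within-pair changes. Those of the fit without the block set it against the spread between cultures of a group. Alternatives covered the block, scaling, background correction, the dim-probe filter, probe averaging, spot flags, moderation and leaving out each pair.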

Additional observations from a re-analysis of the deposited data

Results flagged for a closer look

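Among 84 groups of 4 values tested over 28 genes, 7 held a value far from the other three, and chance gives about 1 in 20. Of the 9 cycle genes, Cs had a within-pair log2 change of 0.00148 in replicate 3 against 0.314 to 0.34 in the others. Idh3b had a within-pair change of 0.195 in replicate 1 against -0.118 to -0.0841. In hypoxia replicate 1, Sdhb was at 5.98 against 5.08 to 5.21 in the other hypoxia cultures. This was the array with the lowest 75th percentile. Sdhc was at 4.65 in normoxia replicate 3 against 4.28 to 4.31, and its change in pair 2 was 0.43 against -0.0844 to -0.0415. Me3 was at 1.12 in normoxia replicate 3 against 0.792 to 0.827. Gls2 was at -0.118 in hypoxia replicate 4 against 0.979 to 1.11.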

How the results depend on the processing

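None of the 9 cycle genes passed the threshold under any setting, and their median log2 change ran from -0.0732 to 0.0127. Of all genes, 1140 rose and 347 fell with the replicate number as a block. With no replicate block 24 rose and 0 fell (limma, 2158 at an unadjusted p under 0.05). With no filter on dim probes 379 rose and 71 fell, and with trend and robust moderation 1653 rose and 647 fell. Leaving out 1 replicate gave 329 to 1087 that rose and 60 to 368 that fell, with the fewest without replicate 3. Without replicate 1 these were 606 and 111, and without replicate 2 they were 626 and 194.

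None of the changes that took the other sign passed the threshold. Under quantile normalization these were Cs at -0.0136, Idh3a at -0.0732, Idh3g at -0.175, Fh1 at -0.0455, Mdh2 at -0.0687, Sdha at -0.0297, Sdhb at -0.0431, Sdhc at -0.0267 and Sdhd at -0.0987. Under median scaling they were Idh3a at -0.0377, Idh3g at -0.051, Fh1 at -0.0309, Sdha at -0.0162 and Sdhd at -0.00414. With normexp Idh3a was at -0.0165 and Idh3g at -0.003, and in the authors' deposited table Idh3g was at -0.00152. The cause was not tested. In an alternative chosen after seeing the data, quantile normalization put the log2 change of Idh3b relative to Idh3g at 0.138, against -0.0288. Leaving out 1 replicate gave changes of Idh3g from -0.0292 to 0.0649, Idh3b from -0.0994 to 0.00482, Fh1 from -0.0704 to 0.128, Sdha from -0.0559 to 0.1, Sdhc from -0.0692 to 0.102, Sdhd from -0.126 to 0.184, Idh3a from -0.00575 to 0.0542 and Sucla2 from -0.079 to 0.0127.

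With 4 pairs the lowest interval end among the 9 genes is 0.751-fold (Suclg1) and the highest is 1.48-fold (Cs). Each gene has its own interval, so these ends are not a limit of detection shared by the 9. Without the block the intervals are wider. All arrays shared a slide, and those of the 9 genes other than Ogdh rest on 1 probe each.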
